A study of Mus musculus with 2 samples.

Results

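Nonsense-mediated mRNA decay (NMD) destroys mRNAs on which a ribosome stops too early. The NMD factors examined here are *Upf1*, *Upf2*, *Upf3a*, *Upf3b*, *Smg1*, *Smg5*, *Smg6*, *Casc3* and *Eif4a3l1*, chosen by gene symbol as UPF and SMG genes and parts of the exon junction complex. All 9 were found among the 23183 genes of the deposited values, 8 under these symbols and *Eif4a3l1* under its older symbol *Gm8994*. The RNA came from KPR-, an immortalized line established from lung tumors of KPR L/F-TAM(-) mice. In these animals Ad-Cre, an adenovirus with a *CMV* promoter-driven Cre, activates *K-Ras* LSL-G12D and deletes *p53* flox and *Runx3* flox, and a Frt-Stop-Frt cassette silences the other *Runx3* allele. In KPRrestored cells 4-hydroxytamoxifen (4-OHT) activates Flp ERT2, which removes this cassette. Both conditions therefore carry active *K-Ras*, deleted *p53*, and the Tomato and Flp ERT2 alleles, and differ in *Runx3* (RUNX3 -/- against RUNX3 -/+ in the records). The records give 0 h and 16 h and list 1 μM 4-OHT for both libraries, whereas in the study 4-OHT separates the conditions. There was 1 library per condition, so differences between conditions have no replicate check and no p-value is given. The hours in culture and 4-OHT itself cannot be told apart from *Runx3* restoration.

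When a spliced mRNA is translated, the ribosome normally clears the exon junction complexes that splicing left on it. A complex that remains downstream of the stop codon is bound by Upf3 proteins and Upf2, which activate the RNA helicase Upf1. Smg1 is the kinase that phosphorylates Upf1, and phosphorylated Upf1 recruits the endonuclease Smg6 and the adaptor Smg5. Deadenylation and decapping enzymes also act on the target.

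Values are FPKM (fragments per kilobase of transcript per M fragments), which are scaled to length. Levels of different genes are compared on this scale, which does not remove biases of mapping or transcript choice. From the steps of low values, about 21.7 M fragments were estimated for KPR- and 22.4 M for KPRrestored. Of the 23183 genes, 11231 averaged 1 FPKM or more across the libraries and are called expressed here. *Runx3* had 0.348 FPKM in KPR- and 0.349 FPKM in KPRrestored, from about 28 and 29 fragments, so its level per gene does not check the labels. Of the epithelial markers, *Epcam*, *Cdh1*, *Krt8* and *Krt18* were all expressed (summed FPKM 3867 and 3529). Of the lung lineage markers, *Sftpc*, *Sftpb* and *Scgb1a1* were listed at 0 in both libraries, and *Nkx2-1* had 0.0444 and 0.0216 FPKM. The summed levels were 12.7 and 5.33 FPKM for 5 fibroblast markers, 3.08 and 6.79 FPKM for 4 leukocyte markers and 1.16 and 2.22 FPKM for 3 endothelial markers. Single genes made up most of the first sums, *Col1a1* with 12.2 and 4.21 FPKM and *Cd68* with 3.08 and 6.78 FPKM, and the fibroblast marker *Dcn* went from 0.173 to 0.742 FPKM. *Ptprc*, which defines leukocytes, was listed at 0 in KPR- and had 0.00892 FPKM in KPRrestored.

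To determine whether the NMD machinery differed after *Runx3* restoration, log2(FPKM + 0.005) in KPR- was subtracted from that in KPRrestored for every gene, and a difference of 0.5 or more either way was counted as a call. All the NMD factors but *Eif4a3l1* were expressed, and none of these 8 was called, where 21.4% of the 11231 expressed genes were (12.1% higher and 9.29% lower). On the log2 scale their differences ran from -0.12 for *Upf1* to 0.15 for *Casc3*. All 8 lay within 0.2 either way, as did 41.9% of the expressed genes. With the trend of the differences over transcript length removed, *Upf2* lay outside this range at 0.24. Among the 6967 genes with a mean FPKM of 5 to 50, a range that holds all 8 factors, 17.9% were called and 43.6% lay within 0.2. The 8 factors divided evenly, with 4 above and 4 below 0, and their median was 0.0010 against 0.0086 for the 11231 genes. Summed over all 9 factors, the level was 187 FPKM in KPR- and 188 FPKM in KPRrestored.

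**Figure D1:**
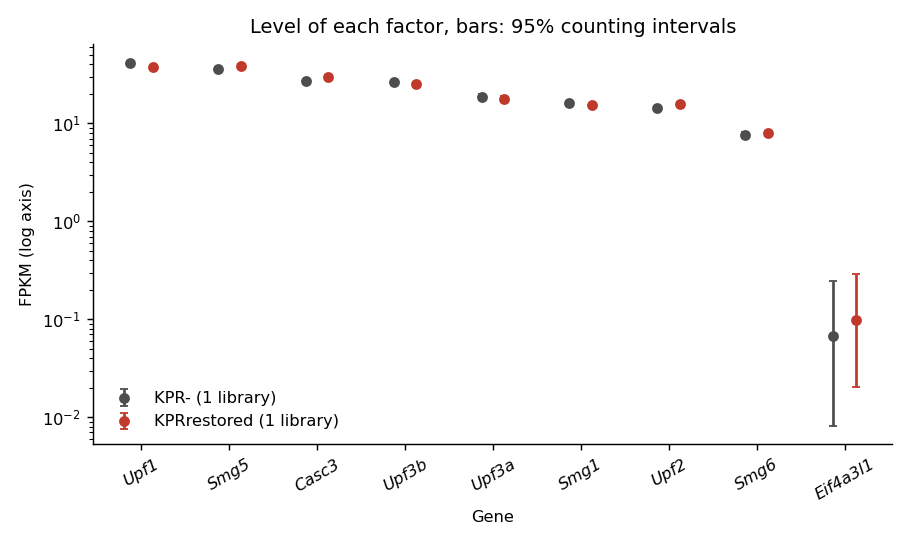
FPKM (log axis) of each NMD factor in the KPR- library (grey) and the KPRrestored library (red), 1 library each. Bars are 95% exact Poisson intervals of the estimated fragments and cover counting error only. The 8 expressed factors sit between 7.58 and 40.8 FPKM, with the libraries close together in each, and *Eif4a3l1* lies near 0.1 FPKM.

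Among the UPF genes, *Upf1* (chr8:70331493-70353423, minus strand, GRCm38.p6), the helicase at the centre of the pathway, had 40.8 FPKM in KPR- and 37.5 FPKM in KPRrestored. The log2 difference was -0.12 in the library labelled KPRrestored, and its 95% counting interval ran from -0.19 to -0.06. *Upf2* (chr2:5951447-6056703, plus strand), which joins Upf1 to the Upf3 proteins, had 14.2 FPKM in KPR- and 15.8 FPKM in KPRrestored, which differed by 0.15 on the log2 scale (interval 0.05 to 0.25). *Upf1* and *Upf2* thus stood on opposite sides of 0, and the level of *Upf1* was 2.87 times that of *Upf2* in KPR- and 2.38 times in KPRrestored.

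*Upf3a* and *Upf3b* are paralogs that bind the exon junction complex, and Upf3b is the stronger activator of NMD. *Upf3a* (chr8:13785055-13798723, plus strand) had 18.7 FPKM in KPR- and 17.9 FPKM in KPRrestored. *Upf3b* (chrX:37091678-37110471, minus strand) had 26.4 FPKM in KPR- and 25.03 FPKM in KPRrestored. Their log2 differences were alike, -0.06 and -0.08, and both counting intervals included 0 (-0.21 to 0.09 and -0.19 to 0.04). *Upf3b* stood 1.41 times above *Upf3a* in KPR- and 1.40 times in KPRrestored. Their longest coding transcripts share none of the 1958 windows of 100 bases in *Upf3a*, so no read of 100 bases can match both exactly.

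Among the SMG genes, *Smg1* (chr7:118131308-118244437, minus strand), the kinase of Upf1, had 16.2 FPKM in KPR- and 15.3 FPKM in KPRrestored, which differed by -0.09 on the log2 scale (counting interval -0.15 to -0.04). *Smg5* (chr3:88336259-88362338, plus strand), the adaptor that binds phosphorylated Upf1, had 35.9 FPKM in KPR- and 38.6 FPKM in KPRrestored, a log2 difference of 0.11 with an interval of 0.04 to 0.17. *Smg6* (chr11:74925854-75164448, plus strand), the endonuclease that cuts the target near the stop codon, had 7.58 FPKM in KPR- and 7.93 FPKM in KPRrestored, a log2 difference of 0.07 with an interval of -0.06 to 0.20. *Smg6* was the lowest of the 8 expressed factors in both libraries, and *Smg5* had 4.74 times its level in KPR- and 4.88 times in KPRrestored.

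*Casc3* (chr11:98809808-98833807, plus strand), an outer component of the exon junction complex, had 26.8 FPKM in KPR- and 29.8 FPKM in KPRrestored. Its log2 difference of 0.15, or 11.0% higher, had a counting interval of 0.07 to 0.24. The core of the complex is the RNA helicase Eif4a3, bound by Magoh and Rbm8a. *Eif4a3* had 132 FPKM in KPR- and 134 FPKM in KPRrestored, a log2 difference of 0.02, and stood 4.93 and 4.52 times above *Casc3*.

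**Figure D2:**
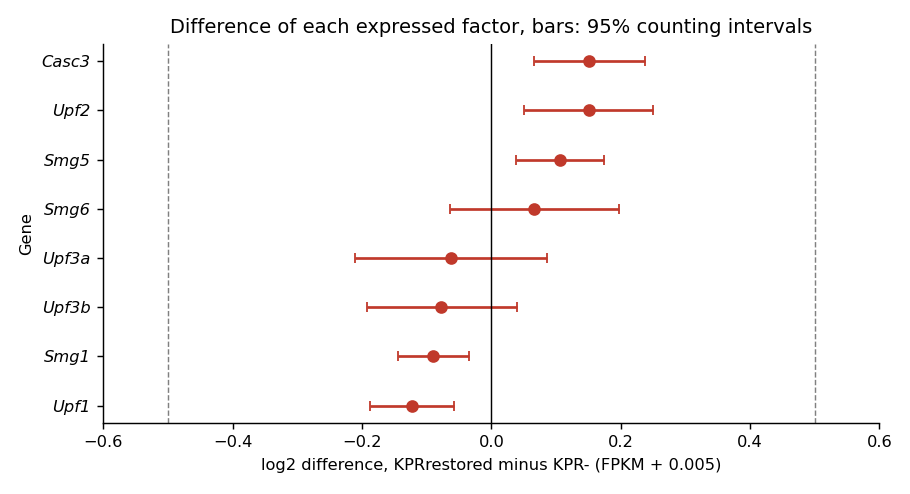
Log2 difference (KPRrestored minus KPR-, FPKM + 0.005) of the 8 expressed NMD factors, with 95% exact Clopper-Pearson limits for counting error only. Dashed lines mark 0.5 either way. All 8 intervals lie inside these lines, and those of *Upf3a*, *Upf3b* and *Smg6* include 0.

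Counting intervals excluded 0 for 5 of the 8 expressed factors, *Upf2*, *Smg5* and *Casc3* on the higher side and *Upf1* and *Smg1* on the lower side. These intervals come from 749 to 5411 estimated fragments per gene in KPR- and hold no variation between cultures. Among the other lists described below, intervals also excluded 0 for 28 of 39 pathway genes and 20 of 22 NMD-sensitive RNAs. The same held for 16 of 21 genes of no-go and nonstop decay and the RNA exosome. The share among all expressed genes was not computed, so these counts do not set the listed genes apart from other genes. In KPR- the order of levels was *Upf1*, *Smg5*, *Casc3*, *Upf3b*, *Upf3a*, *Smg1*, *Upf2* and *Smg6*. Of the neighbours in this order, *Casc3* and *Upf3b* had overlapping counting intervals. In KPRrestored *Smg5* stood above *Upf1* and *Upf2* above *Smg1*, and the intervals of both of these pairs overlapped. The other places were the same. Ranked among the 11231 genes, the factors ran from percentile 32.9 (*Smg6*) to percentile 80.4 (*Upf1*) in KPR-.

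*Eif4a3l1* (chr6:136327539-136329983, plus strand) is a copy of *Eif4a3* with 2 exons in its longest transcript against 12 in *Eif4a3*. It had 0.0670 FPKM in KPR- and 0.0978 FPKM in KPRrestored, from about 2 and 3 fragments. The log2 difference was 0.52, past the threshold as were 26.7% of all genes when low ones are kept, but its counting interval ran from -2.59 to 4.12, so a difference was not detectable at this depth. *Eif4a3l1* is not among the 8 expressed factors. *Eif4a3* had 1975 times its level in KPR-. The coding sequences of both genes have 1236 bases and are identical at 96.2% of them, and 20 of the 1474 windows of 100 bases in the *Eif4a3l1* transcript also occur in *Eif4a3*. How the counting treated such reads is not given in the sources used here, so the few fragments of *Eif4a3l1* cannot be told apart from reads of *Eif4a3*. The opening 90 coding bases, from the start codon, are shown to let the copies be compared, with the 9 positions that differ in capitals (GENCODE M21 transcripts on GRCm38).
Eif4a3: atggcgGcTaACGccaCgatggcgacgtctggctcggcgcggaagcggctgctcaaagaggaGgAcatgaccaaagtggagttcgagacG
Eif4a3l1: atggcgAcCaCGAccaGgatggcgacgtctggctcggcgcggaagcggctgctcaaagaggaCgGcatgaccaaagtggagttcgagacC

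Because *Runx3* was the restored gene, the promoters were searched for the RUNX-type letters TGTGGT and TGCGGT on both strands. RefSeq promoters of 300 bases (250 before to 50 after the start, GRCm38.p6) were found for 8 of the 9 factors, all but *Casc3*. Those of 3 factors, *Upf1*, *Upf3a* and *Eif4a3l1*, held a match, against 22.4% of all 32851 promoters of this length. TGTGGT was in 16.8% of all promoters and TGCGGT in 6.45%. *Upf1* held a second TGCGGT on the opposite strand, 15 bases before the start. A match is a run of letters and not a site of Runx3 binding, which was not measured here. The start is the one used for each promoter. For *Upf1* and *Upf3a* it lies inside the gene span given above, and so do their stretches. The 3 stretches upstream of this start are shown 5′ to 3′ on the strand of the gene, with the match in capitals. ACCACA and ACCGCA are the same letters read on the opposite strand.
Upf1 (chr8:70353364-70353409, minus strand, match 110 bases before the start): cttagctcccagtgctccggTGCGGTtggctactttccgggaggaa
Upf3a (chr8:13785385-13785430, plus strand, match 210 bases before the start): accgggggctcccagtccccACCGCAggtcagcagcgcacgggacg
Eif4a3l1 (chr6:136327450-136327495, plus strand, match 69 bases before the start): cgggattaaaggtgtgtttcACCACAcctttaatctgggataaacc

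The promoters with a match belong to *Upf1* and *Upf3a*, which were both below 0, and to *Eif4a3l1*, which was above 0. The counting interval of *Upf1* (-0.19 to -0.06) excluded 0, and those of *Upf3a* (-0.21 to 0.09) and *Eif4a3l1* (-2.59 to 4.12) included 0. Of the factors whose promoter held no match, *Upf3b* and *Smg1* were below 0 and *Upf2*, *Smg5* and *Smg6* above 0. Whether matches and differences are related was not tested. The promoters of *Upf1*, *Upf2*, *Upf3a*, *Upf3b*, *Smg1*, *Smg5* and *Smg6* held 58.7% to 72.3% G and C, and that of *Eif4a3l1* 45%, against a median of 52.7% for all promoters.

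Several factors share their locus with other genes. *Upf1* overlaps *Cers1* and *Gdf1*, and *Smg6* overlaps *Srr*, all on the opposite strand, while *Casc3* overlaps *Msl1* on the same strand. *Smg1* overlaps *Gm45084* on the same strand. *Smg1*, *Smg6* and *Casc3* also overlap noncoding genes or pseudogenes on the opposite strand. The libraries were directional, but the strand setting of the counting is not given in the sources used here. Reads from overlapping exons therefore cannot be told apart, and on the same strand such a setting would not separate them.

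Most of the factors have long mRNAs, and in these libraries the difference moved with transcript length. The median transcript of the 8 expressed factors was 4533 bases, against 3014 bases for the 11231 expressed genes. Genes of 1000 to 2000 bases had a median difference of 0.09, genes of 5000 to 6000 bases one of -0.08, and genes of 8000 bases or more one of -0.23. *Casc3* and *Smg5*, with 0.15 and 0.11, stood above their class medians of 0.0069 and -0.03. *Upf2* (5174 bases) and *Smg6* (5848 bases), with 0.15 and 0.07, stood above the median of their length class. *Smg1*, with a transcript of 15557 bases, had -0.09 and also stood above that of its class. *Upf3a* (2057 bases) and *Upf3b* (2344 bases) stood below their class median of 0.07. *Upf1* (4618 bases), with -0.12, stood below its class median of -0.03. With the length trend subtracted, the median of the 8 factors was 0.15, and *Smg1* changed sign to 0.15. The calls were still 0 higher and 0 lower. The part of transcript length or RNA quality in these small differences was not tested.

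**Figure D3:**
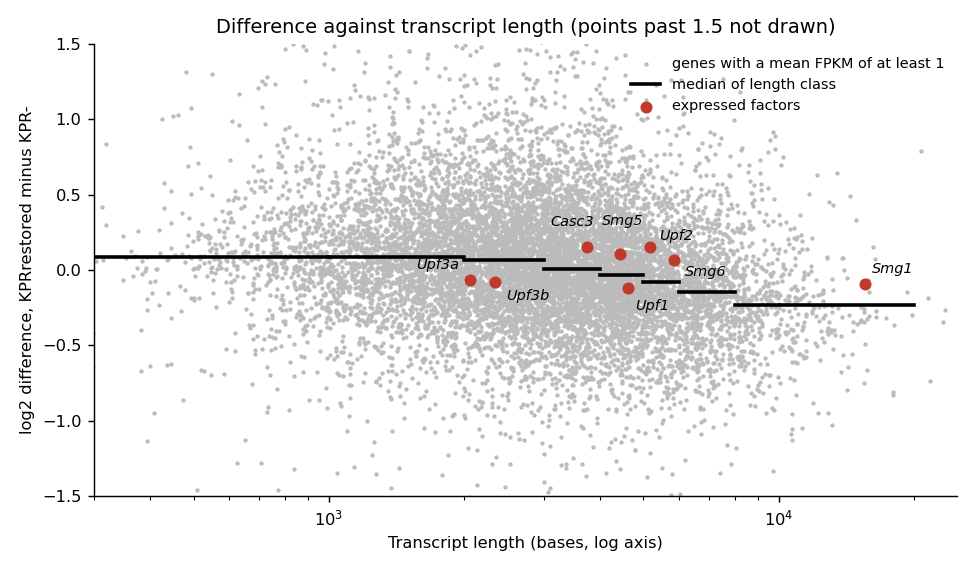
Log2 difference (KPRrestored minus KPR-) against transcript length in bases (log axis). Grey points are expressed genes, black lines the median of each length class, and red points the 8 expressed NMD factors. The class medians go from 0.09 at 1000 to 2000 bases to -0.23 at 8000 bases or more, and *Casc3*, *Smg5*, *Upf2*, *Smg6* and *Smg1* lie above theirs.

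The other genes of the pathway were taken from lists of 41 genes, of which 40 matched the deposited values by symbol or synonym. Of those, 39 were expressed. Of these 39 genes, 2 were higher and 4 were lower by 0.5 or more (12.1% and 9.29% of the 11231 genes), with a median of 0.02. Among 7 further NMD factors, *Smg8* and *Smg9* differed by 0.09 and 0.18. *Smg8* and *Smg9* encode regulators of the Smg1 kinase, and *Dhx34*, an RNA helicase that acts in NMD, differed by 0.35. *Nbas*, which also acts in transport between the Golgi and the endoplasmic reticulum, went from 6.42 to 3.77 FPKM, or -0.77 on the log2 scale (counting interval -0.92 to -0.62). *Pnrc2*, an adaptor to decapping, went from 20.3 to 28.7 FPKM, or 0.50 on the log2 scale, just past the threshold.

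Of the 12 expressed genes of the exon junction complex and its partners, 11 were not called. *Magoh*, *Magohb* and *Rbm8a*, which bind Eif4a3, differed by 0.14, 0.12 and 0.12, and *Pym1*, which takes the complex apart, by 0.17. The largest uncalled differences of this list were negative, -0.34 for *Pnn*, a partner of the outer complex, and -0.28 for the mRNA export adaptor gene *Alyref*. The gene called was *Sap18*, a partner of the outer complex, with 4.67 FPKM in KPR- and 3.08 FPKM in KPRrestored, a log2 difference of -0.60. This value is uncertain, since the coding sequence of *Sap18* is identical over all 519 bases to that of its copy *Sap18b*, which had 141 and 146 FPKM.

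Of the cap-binding and Staufen partners of Upf1, *Ncbp2*, the smaller subunit of the nuclear cap-binding complex, went from 25.2 to 16.6 FPKM, or -0.61 on the log2 scale, while its partner *Ncbp1* differed by -0.08. *Stau1*, which recruits Upf1 to double-stranded RNA, differed by 0.23. Among the genes of termination, *Gspt2* went from 7.16 to 11.6 FPKM, or 0.70 on the log2 scale. *Gspt1*, which encodes the main form of the release factor eRF3, went from 39.5 to 29.7 FPKM, or -0.41 on the log2 scale. *Gspt1* thus stood 5.52 times above *Gspt2* in KPR- and 2.56 times in KPRrestored. The copies share 0 windows of 100 bases. *Pabpc4*, which encodes a cytoplasmic poly(A)-binding protein, went from 89.8 to 64.9 FPKM, or -0.47 on the log2 scale. *Etf1*, the factor that reads the stop codon, differed by 0.04.

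Among the 10 expressed genes of decapping, deadenylation and decay from the 5′ end, 1 was called. *Cnot1*, the scaffold of the CCR4-NOT deadenylase, went from 35.8 to 23.6 FPKM, or -0.60 on the log2 scale (counting interval -0.66 to -0.55). The largest uncalled difference was -0.41 for *Ddx6*, which encodes an RNA helicase that promotes decapping. The decapping enzyme gene *Dcp2* differed by -0.26, the exonuclease gene *Xrn1* by -0.27 and the scaffold gene *Edc4* by 0.27. *Dcp1b* had 0.693 and 0.944 FPKM and is not among the 10.

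**Figure D4:**
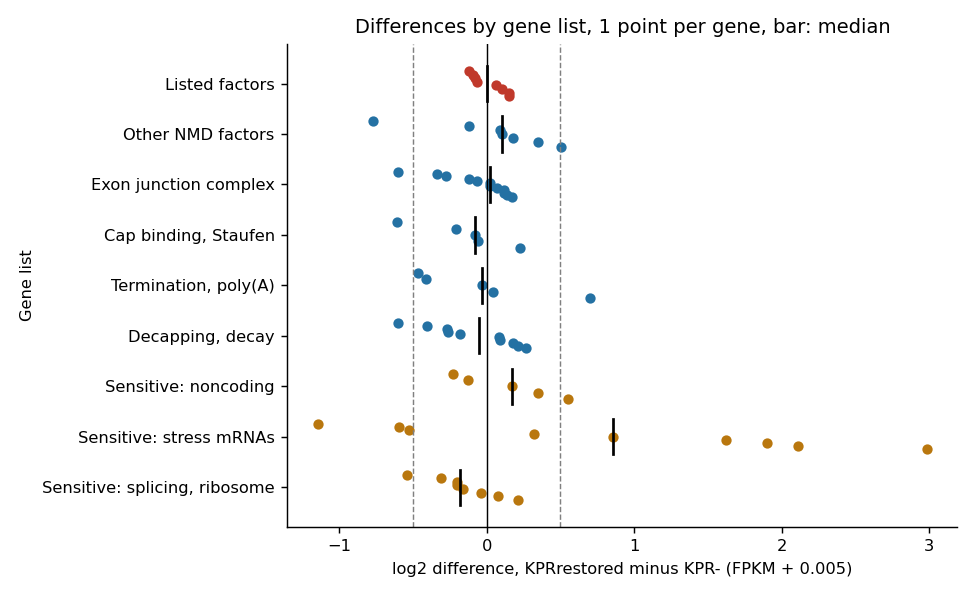
Log2 difference (KPRrestored minus KPR-, FPKM + 0.005) of each expressed gene, by gene list, with the median as a black bar and 0.5 either way as dashed lines. The 8 listed NMD factors (red) lie between -0.12 and 0.15, the pathway genes (blue) between -0.77 and 0.70, and the NMD-sensitive RNAs (brown) between -1.14 and 2.98.

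RNAs described as sensitive to NMD were examined beside the factors. The values per gene do not separate isoforms, so a sensitive isoform cannot be told apart from the other transcripts of its gene. Of 22 such genes, all expressed, 6 were higher and 4 were lower by 0.5 or more (12.1% and 9.29% of the 11231 genes), and their median was 0.02. The noncoding snoRNA hosts, whose short reading frames mark them for NMD, stood on both sides of 0. *Gas5* went from 46.7 to 39.96 FPKM (-0.23 on the log2 scale), *Snhg12* from 26.5 to 24.3 FPKM (-0.13) and *Snhg15* from 21.2 to 23.9 FPKM (0.17). *Snhg1* went from 112 to 143 FPKM (0.35), and *Zfas1* from 64.8 to 94.95 FPKM (0.55), the only one of the 5 that was called.

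Of the 9 stress mRNAs, 5 were higher and 3 were lower, where 12.1% and 9.29% of all expressed genes were. The higher ones were *Atf4*, *Ddit3*, *Atf3*, *Gadd45a* and *Upp1*, with log2 differences of 1.62, 2.11, 2.98, 1.90 and 0.85. *Atf4* encodes a transcription factor of the stress response, and *Ddit3* and *Atf3* are among the genes it induces. The lower ones were *Map3k14*, *Tbl2* and *Gadd45b*, with -1.14, -0.60 and -0.53. *Ern1*, which encodes the stress sensor Ire1, differed by 0.32. Of 8 splicing factor and ribosomal protein genes that make isoforms with early stop codons, *Srsf2* was called, from 226 to 155 FPKM (-0.54), and 7 were not. *Srsf3* differed by -0.31, *Rpl3* by -0.04 and *Rpl12* by 0.22.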

How the data were processed

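Poly(A)-selected RNA of KPR- and KPRrestored cells was sequenced as 1 directional paired-end library each. The authors trimmed reads using FASTX_Trimmer and BBMap, mapped them using TopHat (to mm10, per the labels' processing notes) and deposited FPKM values estimated using Cufflinks. The paper also names a geometric normalization of read counts in EdgeR. Whether the deposited values carry it is not given in the sources used here. If they do, the estimated depths carry it too. The versions and the annotation are not given in the sources used here.

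Differences were computed as log2(FPKM + 0.005), which understates the change of low genes, with a threshold of 0.5 and a minimum mean of 1 FPKM (expressed genes). No further scaling was applied. Transcript lengths (GENCODE M21, longest with a RefSeq counterpart) were found for 22789 of the 23183 symbols, 22148 directly and the others through RefSeq synonyms (GRCm38.p6). Fragments per gene and a mean fragment length of 213 bases were estimated from the steps of low FPKM values, fitted on genes with a single transcript. At 0.5 to 5.5 estimated fragments, 80.4% of 459 values in KPR- and 81.7% of 486 in KPRrestored lay within 0.1 of a whole number. The 95% intervals (exact Poisson for levels, Clopper-Pearson for differences) cover counting error only, and fragments are upper estimates for genes with several transcript lengths. The scripts were tested on simulated data.

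All 9 factors were named with both values. Of each other list, the genes past the threshold and, in a direction with none, the largest difference were to be named. Further genes with their values (among them *Smg8*, *Smg9*, *Dhx34*, *Pnn*, *Alyref*, *Ddx6*, *Magoh*, *Magohb*, *Rbm8a*, *Etf1*, *Dcp2*, *Xrn1* and *Rpl3*) were chosen after their values were seen. The factors, lists and thresholds were chosen with earlier results of these data known, and 1 gene was left out of the lists and is not reported here. Alternatives were other pseudocounts, filters, a threshold of 1, scalings, removal of the length trend and another transcript choice. Among the 9 factors, that choice (the shortest coding transcript) differed from the main choice only for *Upf1*, with 4518 against 4618 bases. The software was numpy 2.4.6, scipy 1.17.1, pandas 2.3.3 and matplotlib 3.10.9 under Python 3.11.15.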

Additional observations from a re-analysis of the deposited data

How the results depend on the processing

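No paired analysis was possible because each condition has 1 library. Without the filter on FPKM, 1 NMD factor (*Eif4a3l1*) was higher by 0.5 or more. With the transcript length trend removed, the median of the 8 expressed factors was 0.15, *Upf1* had -0.04, *Smg1* 0.15 and *Upf2* 0.24. *Smg1* was the only factor to change sign, under that alternative alone, and *Eif4a3l1* ranged from 0.04 (pseudocount of 1) to 0.55. The 2 higher pathway genes fell to 1 with a pseudocount of 1, with the length trend removed and under every rescaling tried (the same FPKM total, the same upper quartile and centring on the median gene). At a threshold of 1, 0 pathway genes were higher and 0 lower, and 1 NMD-sensitive RNA (*Map3k14*) was lower, since that threshold is stricter. The other 52 counts and medians moved by at most 1.5 times or by less than the typical counting error of the factors (0.09 on the log2 scale). Some of these 52 could not move. All 8 expressed factors average 5 FPKM or more, and factors not called at 0.5 cannot be called at 1. A ratio of FPKM with no pseudocount was added after the data were seen. Neither it nor the other pseudocounts could change a sign, since adding the same amount to both values keeps their order. About 2 and 3 fragments limit *Eif4a3l1*.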

Other observations

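Cells also clear mRNAs on which ribosomes stall or run past the end, through no-go and nonstop decay, and degrade RNA from the 3′ end with the RNA exosome. A list of 22 such genes was written after the NMD factors had been seen and before its own values were. By symbol or synonym, 21 of them were found in the deposited values, all expressed. Whether the other gene, *Znf598*, is listed under a further symbol was not checked. Of these 21 genes, 1 was higher and 0 were lower by 0.5 or more (12.1% and 9.29% of the 11231 expressed genes), with a median log2 difference of -0.02. The higher gene was *Pelo*, which encodes the factor that splits stalled ribosomes, with 20.8 FPKM in KPR- and 32.9 FPKM in KPRrestored, or 0.66 on the log2 scale (counting interval 0.51 to 0.80). Its partner *Hbs1l* had 28.9 FPKM in KPR- and 30.7 FPKM in KPRrestored, a log2 difference of 0.08. *Ttc37*, the scaffold of the Ski complex that feeds RNA to the exosome, had 10.3 FPKM in KPR- and 7.52 FPKM in KPRrestored, the lowest difference of the list at -0.46. Of the exosome subunits, *Exosc9* differed by 0.30 and *Exosc6* by -0.33, on either side of 0.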
